A study of Mus musculus with 4 samples.

Results

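Chaperones are proteins that help other proteins fold, keep them soluble and take aggregates apart. The 35 genes described here encode the main cytosolic and mitochondrial chaperone machines of the cell and were taken by gene symbol, family by family. They are members of the HSP110, HSP70, HSP90 and J-domain families, co-chaperones of HSP90, the anti-aggregation factors Bag3 and Hspb1, the mitochondrial chaperonin, the cytosolic chaperonin CCT and the heat shock factors Hsf1 and Hsf2. All 35 have a row among the 23997 genes of the deposited expression table, and all 35 belong to the 11187 genes with a mean of at least 1 FPKM, which were tested.

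The study measured RNA of T follicular helper (Tfh) cells, which are CD4 T cells supporting B cells in germinal centres, in 13-week-old C57BL/6 mice. It set 2 libraries of wild-type animals (WT) against 2 libraries of animals with the genotype Apoe-/-, which lack apolipoprotein E, a carrier of plasma lipids, and are a standard model of raised cholesterol and atherosclerosis. Cells came from lymph nodes and spleens. The labels give neither the sort nor the number of mice per library, so p-values measure the spread between these libraries only, which may be technical. Values are FPKM, fragment counts scaled for transcript length and library size, so that levels can be compared between genes. Differences are Apoe-/- minus WT on the scale of log2(FPKM + 1), tested by limma with p-values adjusted by Benjamini-Hochberg across the 11187 genes and called at 0.05.

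HSP70 proteins bind exposed hydrophobic stretches of a client protein and hold or release it as they bind and hydrolyse ATP. J-domain proteins deliver clients and start hydrolysis, and HSP110 proteins exchange the nucleotide so that the client is let go. HSP90 works later, on nearly folded clients such as kinases and steroid receptors, with co-chaperones that pass clients from HSP70 or set the pace of its ATP cycle. CCT is a double ring built of 8 related subunits that folds actin and tubulin, whereas Hspd1 and Hspe1 form the folding chamber of the mitochondrial matrix. Hsf1 is the transcription factor that switches on heat shock genes by binding heat shock elements, runs of inverted repeats of the unit NGAAN. T cell activation is known to raise the synthesis of heat shock proteins.

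Heat shock elements were sought near the starts of these genes. RefSeq promoter windows (GRCm38.p6) run from 250 bases before to 50 bases after an annotated start. They were found for 29 of the 35 genes, all but Cct4, Hspa8, Hspa9, Hsp90aa1, Hsp90ab1 and Hsf1. Some genes had several windows, up to 3 for Dnaja1, and a gene was counted once if any of its windows held an element. An element of at least 3 alternating units, GAANNTTCNNGAA on either strand, was present for 5 of the 29 genes (17.2%), against 179 of 27025 genes with such windows (0.662%). An element of 2 units, GAANNTTC or TTCNNGAA, each of which reads the same on both strands and also lies within every longer element, was present for 16 of 29 members (55.2%) and 17.0% of all genes. These are matches of letters, not measured binding. The other 13 of the 29 members, Dnajb1 among them, held no exact match in these windows. Elements with imperfect units or outside the windows were not sought. The first 30 bases after at least 1 start occurred in the gene's own annotated transcripts for 23 of the 29 members. The windows below show the 3 genes that fell in Apoe-/- cells and the members with an element of 3 or more units. Both stress-inducible HSP70 genes are also shown. Windows are read in the direction of transcription with the element in capitals, overlapping matches joined. Where a gene had 2-unit matches only, the first match in 1 window is shown, and any further match is not marked.
Hsph1, chr5:149636287-149636316, minus strand, 3 units, after the start: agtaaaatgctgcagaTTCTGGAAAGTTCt
Dnaja1, chr4:40722318-40722377, plus strand, 2 units: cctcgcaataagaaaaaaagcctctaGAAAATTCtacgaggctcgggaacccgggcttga
Fkbp4, chr6:128438774-128438833, minus strand, 2 units: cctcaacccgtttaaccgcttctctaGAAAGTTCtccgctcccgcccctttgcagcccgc
Hspd1, chr1:55088038-55088097, minus strand, 4 units: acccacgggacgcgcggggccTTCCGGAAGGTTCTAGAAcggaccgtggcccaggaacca
Chordc1, chr9:18292259-18292288, plus strand, 5 units, across the start: accgGAACGTTCGGGAAAATTCCTGAAgca
Dnajb6, chr5:29735828-29735887, plus strand, 3 units: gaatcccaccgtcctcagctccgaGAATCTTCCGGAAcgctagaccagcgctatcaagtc
Hspa1a, chr17:34972227-34972286, minus strand, 2 units: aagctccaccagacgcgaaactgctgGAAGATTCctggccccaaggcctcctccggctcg
Hspa1b, chr17:34959309-34959368, minus strand, 2 units: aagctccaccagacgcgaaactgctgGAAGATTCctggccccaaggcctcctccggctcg

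Hspe1, the fifth gene with such an element, shares the window of Hspd1 and reads it on the other strand, since both genes start from the same stretch and are transcribed away from each other. The Hspa1a and Hspa1b windows of 60 bases are identical, and their full windows match at 296 of 300 bases. For Hsph1 and Hspd1, with 2 windows each, the printed one belongs to a start inside the gene's span, not at its outer end.

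Of the 35 chaperone genes 3 fell in Apoe-/- Tfh cells and 0 rose. Those that fell were the HSP110 gene Hsph1, the J-domain gene Dnaja1 and the HSP90 co-chaperone gene Fkbp4. Of all tested genes 0.885% were called lower and 0.948% higher. The other 32 members did not pass, yet every one of the 35 had a difference below 0, where 50% of all tested genes did. The member differences ranged from -1.98 to -0.05 with a median of -0.32, while the median of all tested genes was 0.00029 and that of the 4652 tested genes with a mean of at least 20 FPKM was -0.02.

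At an unadjusted limma p under 0.05, 19 members were lower and 0 higher, against 8.27% lower and 11.6% higher among all tested genes. Both Apoe-/- libraries lay below both WT libraries for 25 members, against 22.9% of tested genes. The reverse held for 0 members, against 27.5%. The groups overlapped for the other 10 members, which were Hspa4, Dnaja2, Dnajb6, Ptges3, Cdc37, Tcp1, Cct2, Cct6a, Cct8 and Hsf2. With 2 libraries against 2, a permutation test of a single gene cannot go below p = 0.333, so none was used.

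**Figure D1:**
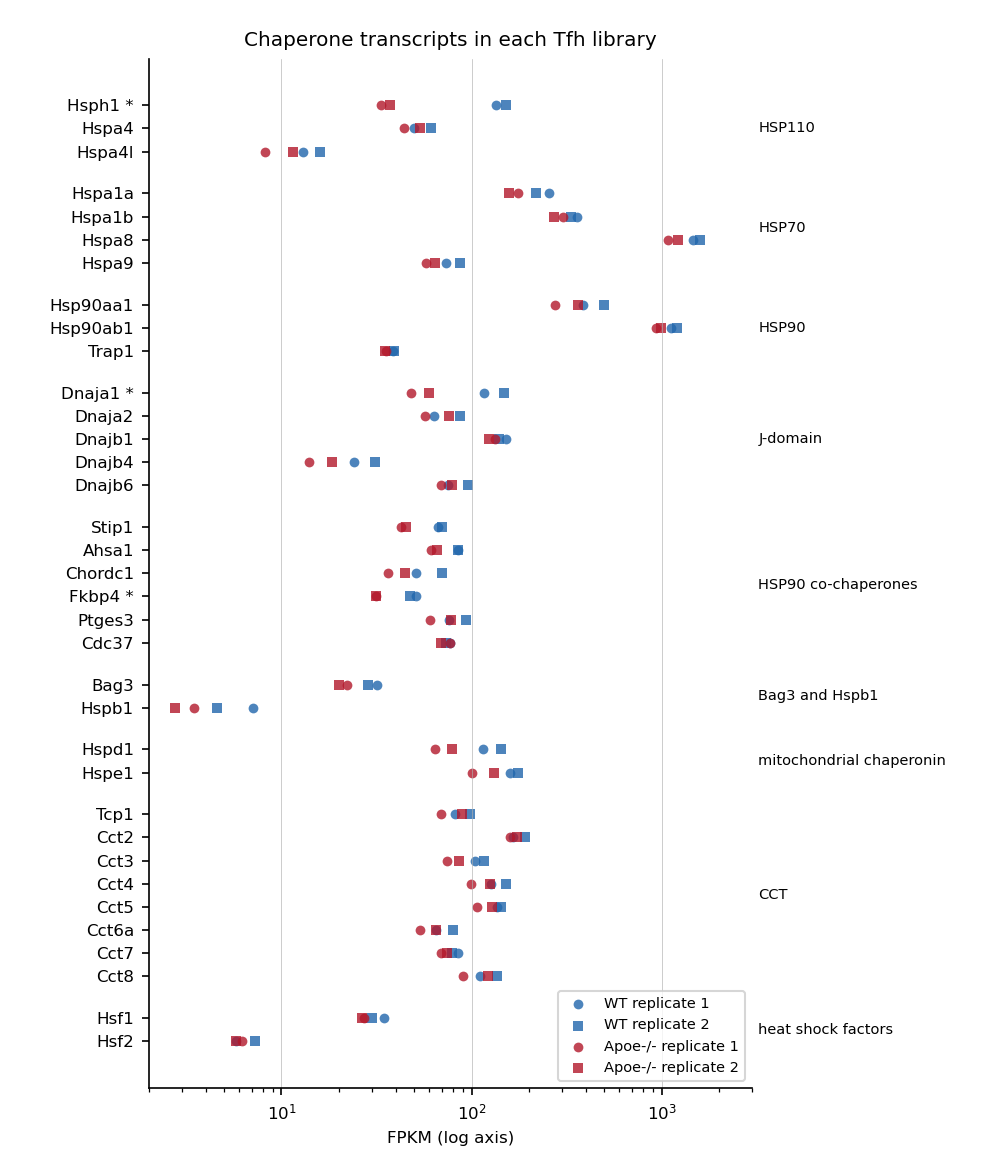
FPKM of the 35 chaperone genes (log axis) in every library, with blue for WT, red for Apoe-/-, circles for replicate 1 and squares for replicate 2, grouped by family, with an asterisk at an adjusted p under 0.05. The red and blue points are farthest apart for Hsph1, at 33.3 and 37.4 FPKM in Apoe-/- against 134 and 151 FPKM in WT cells.

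Summed over the 35 genes, the libraries held 5965 and 6514 FPKM in WT and 4514 and 5021 FPKM in Apoe-/- cells, so the sum was 0.764 times the WT sum. This was 1.14% and 1.24% of all FPKM for WT replicates 1 and 2, and 0.846% and 0.911% for Apoe-/- replicates 1 and 2. Hspa8 and Hsp90ab1 alone made up 42.7% to 44.5% of the member sum in every library. In bulk RNA, a smaller share of cells with a high level and a lower level in every cell cannot be told apart.

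Apoe itself was at 145 and 128 FPKM in WT and at 5.09 and 5.21 FPKM in the Apoe-/- libraries. FPKM totals were 522371 to 551289, and read depth is unknown. Of 8 Tfh markers all were tested and 0 passed by limma, with 1 lower (Pdcd1, -0.50, adjusted p = 0.0887) and 2 higher (Cxcr5, 0.33, adjusted p = 0.153, and Bcl6, 0.23, adjusted p = 0.250) at an unadjusted p under 0.05. Their sums were 1644 and 1655 FPKM in WT and 1671 and 1654 FPKM in Apoe-/- libraries. B cell markers were lower: all 9 tested had a difference below 0, and 4 passed, Fcer2a and Cr2 among them. Their sum was 325 to 330 FPKM in WT and 193 to 202 FPKM in Apoe-/- libraries. Neutrophil markers were higher, with 3 of 3 tested passing and 2 of the 8 listed (Camp and Elane) at 0 in every library, and with sums of 5.71 to 7.46 and 46.2 to 62.2 FPKM. Macrophage and monocyte markers had sums of 87.4 to 94.0 FPKM in WT and 111 to 116 FPKM in Apoe-/- libraries. Of 7 tested 0 passed, 6 had a difference above 0 and 1 below 0 (4 higher and 0 lower at an unadjusted limma p under 0.05). Dendritic cell markers had sums of 126 to 143 and 179 to 185 FPKM. Of 6 tested 1 passed, Itgax, and all 6 had a difference above 0 (5 higher and 0 lower unadjusted). Of 10 cell cycle genes 0 passed, with sums of 517 to 575 FPKM in WT and 407 to 466 FPKM in Apoe-/- libraries. All 10 had a difference below 0, as the chaperone genes did, with a median of -0.20 (3 lower and 0 higher at an unadjusted limma p under 0.05). Of the tested plasma cell, CD8 T and NK cell and erythroid markers 0 of 3, 0 of 6 and 0 of 3 passed. At an unadjusted limma p under 0.05, 2 plasma cell markers were lower and 0 higher. Their sums were 79.3 and 84.7 FPKM in WT and 62.4 and 57.9 FPKM in Apoe-/- libraries. For CD8 T and NK cells 3 were higher and 0 lower, with sums of 20.7 and 20.1 against 26.6 and 30.3 FPKM. For erythroid cells 2 were lower and 0 higher, but Hbb-bs was at 20.8 FPKM in Apoe-/- replicate 1 and below 1 FPKM in every other library. The part of other cell types and of cycling in the chaperone differences was not tested.

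Libraries of equal replicate number resembled each other in their low values, for a reason that the labels do not give. Of 1028 genes low in both libraries numbered 1, 19.0% shared the ratio 1.21 between them (within 0.04 on the log2 scale), and of 1084 genes low in both numbered 2, 18.8% shared the ratio 0.879. In the other 4 pairs of libraries the most common ratio held 4.53% to 6.44% of genes. The difference was therefore also taken within each number. Within number 1 it was below 0 for 34 members, all but Hsf2, with a median of -0.35, and within number 2 for all 35, with a median of -0.30.

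**Figure D2:**
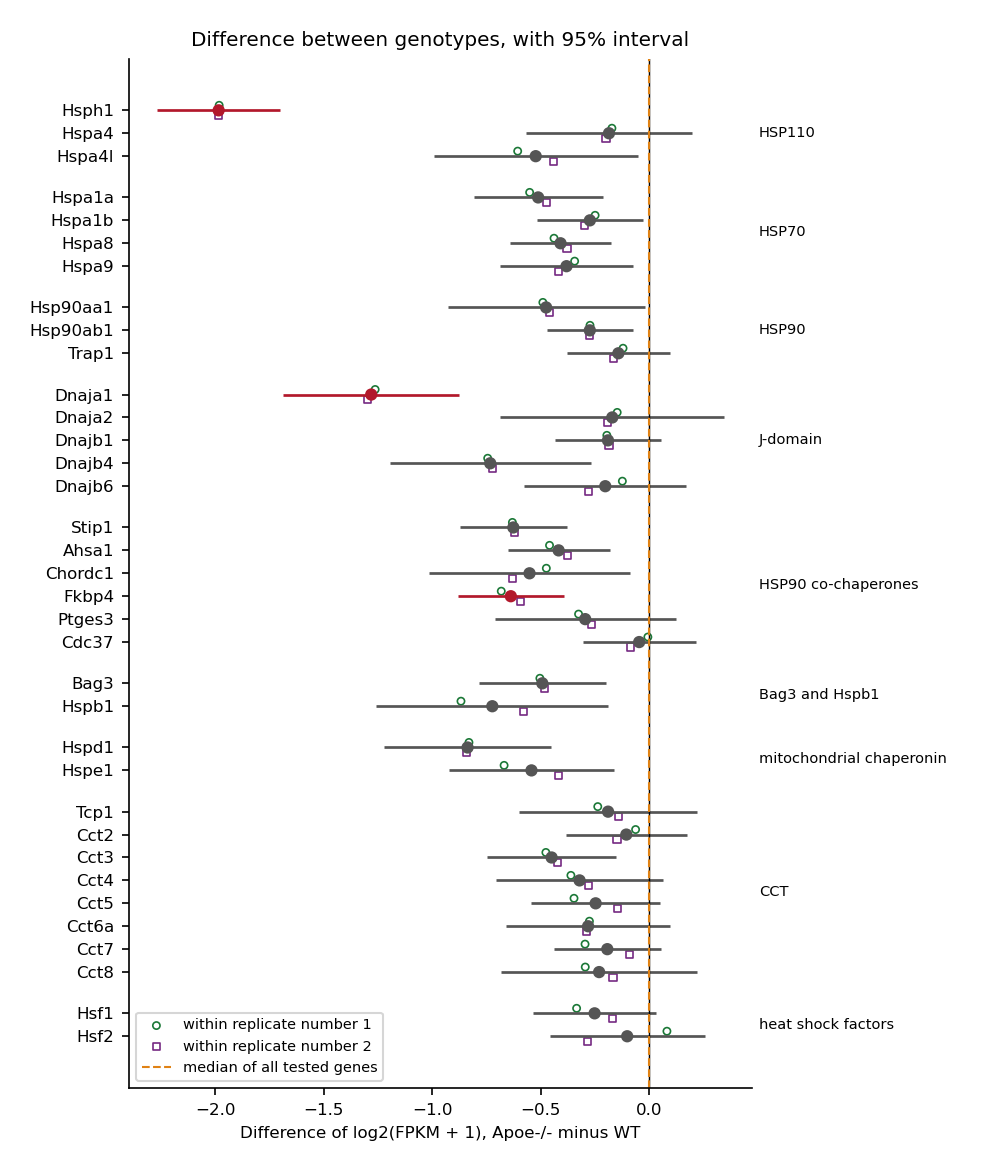
Difference of log2(FPKM + 1), Apoe-/- minus WT, for each chaperone gene with its 95% interval from limma, with the 3 genes called lower in red; open circles and squares give the difference within replicate numbers 1 and 2, and the dashed line the median of all tested genes. Every filled point lies left of 0, from -1.98 for Hsph1 to -0.05 for Cdc37.

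HSP110 chaperones, the nucleotide exchange factors of HSP70, held the member with the largest difference. Hsph1, which encodes the stress-inducible HSP105, was at 134 and 151 FPKM in WT and at 33.3 and 37.4 FPKM in Apoe-/- libraries. Both Apoe-/- values were far below both WT values. The mean fell 4.04-fold, from 143 ± 11.6 to 35.3 ± 2.86 FPKM (SD, n = 2 each; log2 difference -1.98 ± 0.11 SE, limma adjusted p = 0.00802), and by -1.98 within number 1 and -1.99 within number 2. Among the 11187 tested genes it had the 19th lowest difference. The gene spans chromosome 5 from 149616843 to 149636498 (GRCm38), overlaps no other RefSeq gene, and shares none of the 50-base windows of its longest coding transcript with another gene of the GENCODE annotation. The call held in all 16 settings tried, with adjusted p from 7.92e-07 to 0.0353.

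The other HSP110 genes did not pass. Hspa4, the constitutive member that is also called Apg-2, was at 49.8 and 61.3 FPKM in WT and at 44.1 and 53.3 FPKM in Apoe-/- libraries. These groups overlapped, and the 95% interval of the difference ran from -0.57 to 0.20. Hspa4l was at 13.1 and 16.0 FPKM in WT and at 8.24 and 11.5 FPKM in Apoe-/- libraries, with no overlap (-0.52 ± 0.19, adjusted p = 0.214). It passed without Apoe-/- replicate 2 (adjusted p = 0.0351; range over settings 0.00882 to 0.674). In WT cells Hsph1 stood above Hspa4, with Hspa4 at 0.370 and 0.406 times its FPKM. In Apoe-/- cells the order was turned, with Hspa4 at 1.32 and 1.43 times the FPKM of Hsph1.

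HSP70 had the highest summed level of the 9 families in every library, at 2154 and 2223 FPKM in WT and 1616 and 1712 FPKM in Apoe-/- libraries, most of it from Hspa8. None of its 4 members passed, and all 4 had groups that did not overlap. Hspa8, the constitutive HSC70, was at 1464 and 1586 FPKM in WT and at 1080 and 1220 FPKM in Apoe-/- libraries (-0.41 ± 0.09, adjusted p = 0.102). By mean FPKM it ranked 64th among all tested genes. It passed without Apoe-/- replicate 2 (adjusted p = 0.0371; range over settings 0.00179 to 0.467).

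The stress-inducible pair Hspa1a and Hspa1b lies on chromosome 17, at 34969359 to 34972156 and at 34956429 to 34959238. Hspa1a was at 257 and 218 FPKM in WT and at 175 and 157 FPKM in Apoe-/- libraries (-0.51 ± 0.12, adjusted p = 0.106). Hspa1b was at 359 and 333 FPKM in WT and at 302 and 271 FPKM in Apoe-/- libraries (-0.27 ± 0.10, adjusted p = 0.214). These near-identical genes cannot be separated cleanly, because 60.4% of the 50-base windows of the Hspa1a transcript and 62.3% of those of Hspa1b also occur in another gene, mostly in each other. Hspa8 shared 73.2% of its windows, mostly with the annotated gene Gm15459, so its value is uncertain in the same way. Of the other members, Dnajb6 (35.8%), Ptges3 (22.3%) and Ahsa1 (14.6%) also shared part of theirs. How the authors' counting divided such reads is not given in the sources used here, nor whether it used strand, which bears on members that overlap another RefSeq gene, such as Dnajb4 with Fubp1, Cct7 with Pradc1 and Cct8 with Usp16. Hspa9, the HSP70 of the mitochondrial matrix known as mortalin, was at 73.6 and 86.6 FPKM in WT and at 57.8 and 64.6 FPKM in Apoe-/- libraries (-0.38 ± 0.12, adjusted p = 0.181).

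HSP90 genes had the next highest sum, at 1547 and 1735 FPKM in WT and 1239 and 1388 FPKM in Apoe-/- libraries, and 0 of 3 passed. Hsp90ab1, the constitutive HSP90 beta, was at 1123 and 1197 FPKM in WT and at 930 and 990 FPKM in Apoe-/- libraries (-0.27 ± 0.08, adjusted p = 0.153). Hsp90aa1, the inducible HSP90 alpha, was at 386 and 499 FPKM in WT and at 275 and 362 FPKM in Apoe-/- libraries (-0.47 ± 0.18, adjusted p = 0.236), and passed without Apoe-/- replicate 2 (adjusted p = 0.0259; range over settings 0.00144 to 0.716). Neither gene had overlapping groups. Hsp90ab1 exceeded Hsp90aa1 in every library, by 2.91 and 2.40 times in WT and 3.38 and 2.73 times in Apoe-/- cells. Of the transcript windows of Hsp90aa1, 58.5% also occur in other annotated genes, mostly Gm12346. Trap1, the mitochondrial HSP90, was at 38.4 and 39.3 FPKM in WT and at 35.28 and 35.03 FPKM in Apoe-/- libraries, and the interval of its difference ran from -0.38 to 0.10.

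J-domain genes held the second of the called members. Dnaja1, a farnesylated partner of HSP70, was at 117 and 148 FPKM in WT and at 48.1 and 59.4 FPKM in Apoe-/- libraries. Both Apoe-/- values were thus well under the lower WT value. The mean fell 2.46-fold, from 132 ± 21.8 to 53.8 ± 8.02 FPKM (SD, n = 2 each; log2 difference -1.28 ± 0.16 SE, adjusted p = 0.0341), and by -1.26 and -1.30 within numbers 1 and 2. The gene spans chromosome 4 from 40722468 to 40734965, where Gm6297 and Mir207 overlap it, and 18.7% of its transcript windows occur in 4 other annotated genes. With no FPKM filter its adjusted p was 0.0816 (range over settings 0.000118 to 0.0816), and it passed in the other 15 of 16 settings.

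The 4 other J-domain genes did not pass. Dnajb4 was at 24.1 and 31.0 FPKM in WT and at 14.0 and 18.4 FPKM in Apoe-/- libraries, without overlap (-0.73 ± 0.18, adjusted p = 0.122). It passed without Apoe-/- replicate 2 (adjusted p = 0.0110; range over settings 0.00209 to 0.423). Dnajb1, the classical HSP40 and a well-known target of Hsf1, was at 152 and 140 FPKM in WT and at 133 and 123 FPKM in Apoe-/- libraries (-0.19 ± 0.10, adjusted p = 0.355). Dnaja2 (63.4 and 87.3 against 57.2 and 76.3 FPKM) and Dnajb6, a suppressor of aggregation (75.0 and 95.7 against 68.8 and 78.6 FPKM), overlapped between the groups. The ratio of Dnaja1 to its paralog Dnaja2 was 1.84 and 1.69 in WT and 0.842 and 0.779 in Apoe-/- libraries, so Dnaja1 went from the more abundant of the pair to the less abundant.

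Among the 6 co-chaperones of HSP90, Fkbp4 fell and 5 did not pass. Fkbp4, which encodes the immunophilin FKBP52 of steroid receptor complexes, was at 50.8 and 47.7 FPKM in WT and at 31.27 and 31.31 FPKM in Apoe-/- libraries. The mean fell 1.57-fold, from 49.2 ± 2.13 to 31.3 ± 0.0272 FPKM (SD, n = 2 each; log2 difference -0.64 ± 0.10 SE, adjusted p = 0.0494), and by -0.68 and -0.59 within numbers 1 and 2. The gene lies on chromosome 6 at 128430103 to 128438656 and shares no transcript window with another gene. This call sat at the threshold: it held in 6 of 16 settings, and in 4 of the 11 that kept all libraries and used no block. Its adjusted p was 0.196 without WT replicate 1, 0.176 without WT replicate 2 and 0.0656 without Apoe-/- replicate 1 (range over settings 0.00238 to 0.196).

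Stip1, also called HOP, which hands clients from HSP70 to HSP90, just missed the threshold. It was at 66.5 and 70.2 FPKM in WT and at 42.6 and 45.3 FPKM in Apoe-/- libraries, a gap much wider than either pair's spread (-0.63 ± 0.10, adjusted p = 0.0503). It passed with libraries rescaled to one total (adjusted p = 0.0403), with values centred on the median (0.0456) and without Apoe-/- replicate 2 (0.0340; range over settings 0.00163 to 0.248). Chordc1, a zinc-binding HSP90 partner also called morgana, was at 51.1 and 70.0 FPKM in WT and at 36.6 and 44.9 FPKM in Apoe-/- libraries (-0.55 ± 0.19, adjusted p = 0.196).

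Ahsa1, the activator of the HSP90 ATPase, was at 84.4 and 85.2 FPKM in WT and at 61.2 and 65.4 FPKM in Apoe-/- libraries (-0.42 ± 0.09, adjusted p = 0.102). Ptges3, the co-chaperone p23 that stabilises the closed form of HSP90, was at 75.7 and 93.3 against 60.2 and 77.6 FPKM, with overlapping groups. Cdc37, which recruits kinases, had the smallest difference of all 35 genes. It was at 77.3 and 73.2 FPKM in WT and at 77.0 and 68.9 FPKM in Apoe-/- libraries (-0.05, interval from -0.31 to 0.21).

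Bag3, the co-chaperone that links HSP70 to selective autophagy, and Hspb1, the small heat shock protein HSP25, were both at lower FPKM in the Apoe-/- libraries without passing. Bag3 was at 31.8 and 28.4 FPKM in WT and at 22.16 and 20.05 FPKM in Apoe-/- libraries (-0.49 ± 0.12, adjusted p = 0.111). Hspb1 was low throughout, at 7.13 and 4.60 FPKM in WT and at 3.46 and 2.75 FPKM in Apoe-/- libraries (-0.72 ± 0.21, adjusted p = 0.155), and 51.7% of its transcript windows occur in the annotated gene Hsp25-ps1. Hspb1 passed without Apoe-/- replicate 1 (adjusted p = 0.0408; range over settings 0.0107 to 0.386).

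The mitochondrial chaperonin genes lie head to head on chromosome 1, Hspd1 at 55077833 to 55088243 and Hspe1 at 55088148 to 55091317, and their starts overlap. Hspd1, the ring protein HSP60, was at 115 and 143 FPKM in WT and at 64.4 and 79.0 FPKM in Apoe-/- libraries (-0.84 ± 0.15, adjusted p = 0.0755), the third lowest difference of the members. It passed without Apoe-/- replicate 2 (adjusted p = 0.00296), without Apoe-/- replicate 1 (0.0442) and with values centred on the median (0.0472; range over settings 0.000809 to 0.208). Hspe1, the lid of the chamber, was at 160 and 176 FPKM in WT and at 100 and 132 FPKM in Apoe-/- libraries (-0.54 ± 0.15, adjusted p = 0.144). It passed without Apoe-/- replicate 2 (adjusted p = 0.0144; range over settings 0.00634 to 0.467). For both genes the WT and Apoe-/- libraries were apart. Other annotated genes share 44.8% of the Hspd1 windows and 36.1% of the Hspe1 windows.

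The cytosolic chaperonin CCT showed smaller differences, and 0 of its 8 subunit genes passed. Its median difference was -0.24 (-0.29 within number 1 and -0.16 within number 2), with a range from -0.45 to -0.10. Cct3 had the lowest difference, at 104 and 116 FPKM in WT and at 74.3 and 86.3 FPKM in Apoe-/- libraries (-0.45 ± 0.12, adjusted p = 0.132), and was the only subunit with an unadjusted p under 0.05. Cct2 had the highest level of the subunits in every library, at 166 and 192 FPKM in WT and at 159 and 173 FPKM in Apoe-/- libraries, and the smallest difference (interval from -0.38 to 0.17).

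Cct4 (127 and 152 against 98.8 and 125 FPKM), Cct5 (135 and 142 against 106 and 128 FPKM) and Cct7 (85.0 and 79.2 against 69.1 and 74.3 FPKM) had groups that did not overlap. For Tcp1, which encodes the alpha subunit (81.4 and 98.5 against 68.9 and 89.2 FPKM), Cct6a (65.1 and 79.8 against 53.7 and 65.2 FPKM) and Cct8 (111 and 137 against 90.3 and 122 FPKM), the groups overlapped. Although each ring holds every subunit once, transcript levels varied over the 8 genes with a coefficient of variation of 30.02% and 31.22% in WT and 36.4% and 33.1% in Apoe-/- libraries.

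The heat shock factors did not pass either. Hsf1 was at 34.49 and 29.97 FPKM in WT and at 27.2 and 26.6 FPKM in Apoe-/- libraries, without overlap (-0.25, interval from -0.54 to 0.03). Hsf2 was at 5.77 and 7.24 FPKM in WT and at 6.17 and 5.76 FPKM in Apoe-/- libraries, so its groups overlapped and its difference had opposite signs within numbers 1 and 2 (0.08 and -0.28). The 5 genes with a heat shock element of 3 or more units had differences of -1.98 (Hsph1), -0.84 (Hspd1), -0.55 (Chordc1), -0.54 (Hspe1) and -0.20 (Dnajb6). Members with a 2-unit element only ranged from -1.28 for Dnaja1 to -0.05 for Cdc37. The 13 members whose windows held no exact match ranged from -0.63 for Stip1 to -0.10 for Hsf2, among them Hspa4l (-0.52), Cct3 (-0.45) and Ahsa1 (-0.42). These ranges overlap, and no relation between element and difference was tested.

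Members also differed in how libraries of one genotype were ordered. In both genotypes replicate 2 was above replicate 1 for 24 members, among them Hspa4l, Hsp90aa1, Dnaja2, Chordc1, Cct8 and Hsph1. Replicate 1 was above replicate 2 in both genotypes for 7 members, which were Hspa1a, Hspa1b, Dnajb1, Bag3, Hspb1, Hsf1 and Cdc37, and the order differed between genotypes for the other 4. Of all 11187 tested genes, 5200 had replicate 2 higher in both genotypes and 3468 replicate 1. The test has no term for the replicate number and counts this shared order as spread between libraries.

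**Figure D3:**
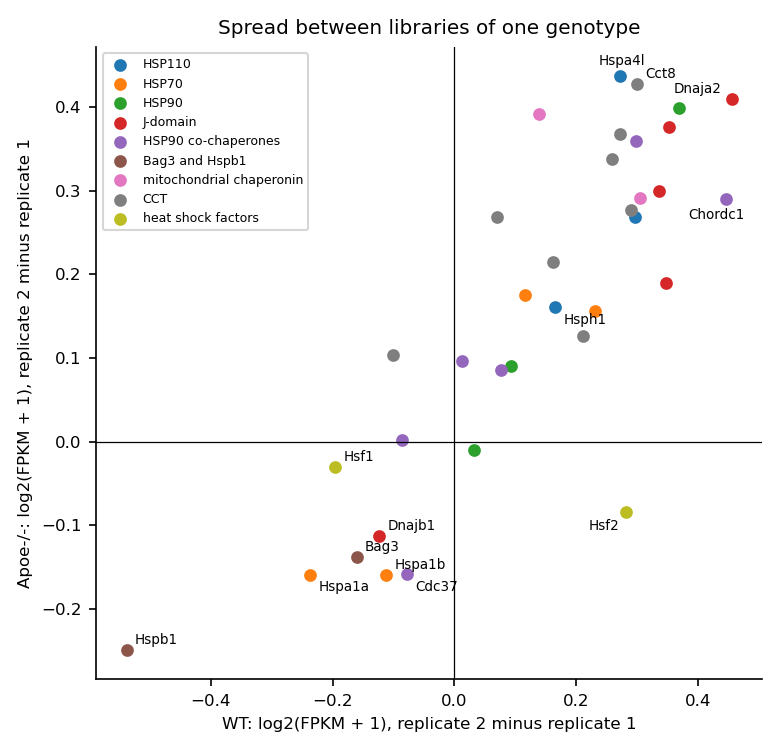
Replicate 2 minus replicate 1 on the log2(FPKM + 1) scale for the 35 chaperone genes, in WT on the horizontal axis and in Apoe-/- on the vertical axis, coloured by family. The 24 genes at the upper right were higher in replicate 2 of both genotypes, and the 7 at the lower left, with Hspb1 and Hspa1a outermost, were higher in replicate 1 of both.

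Other genes of protein folding, none of them among the 35, showed differences of varied size. Of 20 further co-chaperones of HSP70 and HSP90, 0 passed by limma (3 lower and 0 higher at an unadjusted p under 0.05) and the median difference was -0.07. Of 20 further J-domain genes 0 passed (0 lower and 1 higher unadjusted, median -0.03), and of 15 genes of mitochondrial proteostasis 0 passed (1 lower and 2 higher unadjusted, median -0.03). Of 9 tested prefoldin and CCT regulator genes 0 passed (0 lower and 1 higher unadjusted), with a median of -0.16. Of the 11 tested among 18 other heat shock genes and regulators, Zfand2a fell and 10 did not pass (4 lower and 1 higher unadjusted, median -0.21). The 1 higher was the small heat shock gene Hspb6, named after its values were seen, at 2.63 and 1.73 FPKM in WT and at 5.36 and 4.29 FPKM in Apoe-/- libraries (0.88 ± 0.19, adjusted p = 0.0962). Zfand2a, an arsenite- and heat-inducible gene of the proteasome system, was at 38.1 and 36.2 FPKM in WT and at 16.3 and 17.8 FPKM in Apoe-/- libraries (log2 difference -1.08 ± 0.11 SE, adjusted p = 0.0185).

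Chaperones of the endoplasmic reticulum were the list closest to the members, with a median of -0.41. Of these 18 genes 2 fell, 0 rose and 16 did not pass, with 12 lower and 0 higher at an unadjusted p under 0.05. Calr, which encodes the lectin chaperone calreticulin, was at 315 and 334 FPKM in WT and at 209.6 and 209.2 FPKM in Apoe-/- libraries (log2 difference -0.63 ± 0.08 SE, adjusted p = 0.0373). Sdf2l1, a cofactor of the HSP70 protein BiP, was at 20.2 and 20.6 FPKM in WT and at 10.5 and 11.1 FPKM in Apoe-/- libraries (-0.86 ± 0.11, adjusted p = 0.0323). Without WT replicate 1 or 2 the adjusted p was 0.111 and 0.180 for Calr (range over settings 0.00122 to 0.180) and 0.103 and 0.121 for Sdf2l1 (range 0.00193 to 0.121). With no FPKM filter these values were 0.0726 and 0.0672.

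**Figure D4:**
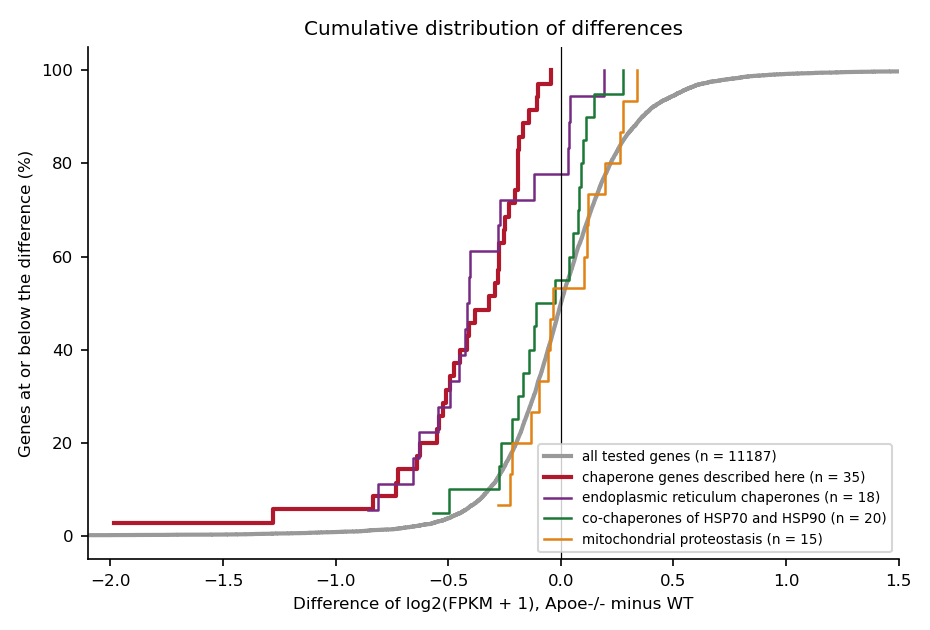
Cumulative share of genes (vertical axis, percent) at or below each difference of log2(FPKM + 1), Apoe-/- minus WT, for all tested genes, the 35 chaperone genes and 3 other folding lists. The chaperone curve reaches 100% left of 0, the curve of endoplasmic reticulum chaperones runs near it with a median of -0.41, and the other 2 lists have medians of -0.07 and -0.03, near that of all tested genes (0.00029).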

How the data were processed

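The deposited table gives FPKM per gene symbol for each of 4 libraries, as the authors computed them. Per the submitters' processing notes, CASAVA 1.8.2, TopHat2 2.0.13, Cuffdiff 2.2.0 and mm10 were used, with no order or settings. The annotation, strand setting and filters were not given in those notes or in any other source used here. In 2 rows a space stands for a tab, and rows were split on white space. Groups and replicate numbers came from the sample titles.

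Values were analysed as log2(FPKM + 1), a scale that understates changes of low genes, and only genes averaging at least 1 FPKM were tested. The test was limma 3.58.1 in R 4.3.3 (two-sided, moderated by eBayes along a mean-variance trend), fitted on the whole table. It was checked on simulated data with independent noise in each library. That check does not cover the replicate order shared between genotypes in the measured data. Alternatives changed the pseudocount, filter, scaling or variance model, added the replicate number as a block, or left out 1 library. The filter at a mean of 20 FPKM was added after seeing the data. Members and lists were chosen with earlier results of these data known. All members are described, with full statistics for those that passed and the 12 with the largest difference. Genes of other lists are named where they passed. Promoter sequences are RefSeq's (GRCm38.p6), and 50-base windows were compared among GENCODE M21 transcripts of the same assembly. For Cct6a, which has no transcript labelled coding there, windows were not compared.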

Additional observations from a re-analysis of the deposited data

How the results depend on the processing

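The member median stayed between -0.44 and -0.28 in all 16 settings, within 1 pooled SD of the library medians (0.170), and 0 members were called higher in any of them. Of the 3 members called lower, 1 remained with no FPKM filter, and all tested genes then gave 41 lower and 35 higher calls. With a mean of 5 or more FPKM 51 genes were called higher, and with 20 or more 41 lower and 17 higher. Leaving out 1 library, where the library left alone takes its spread from the other genotype, gave 2 to 10 members called lower, the 10 without Apoe-/- replicate 2, and 61 to 301 lower and 54 to 317 higher calls over all genes. Differences reached above 0 for 4 members in these fits, ranging from -0.40 to 0.058 for Dnaja2, -0.12 to 0.034 for Cdc37, -0.21 to 0.0010 for Cct2 and -0.24 to 0.040 for Hsf2. With the replicate number as a replicate block, 30 members were called lower, and 1776 lower and 1908 higher genes in all. The settings named above in which members such as Stip1 passed leave out this block fit, while the ranges over settings include it. The lower end of the range came from the block fit for Hspa4l, Hspa8 and Hsp90aa1. The labels do not pair the libraries. Replicate 2 minus replicate 1 correlated between genotypes with a Pearson r of 0.214 and a Spearman rho of 0.667 over the 11187 tested genes, which share libraries and are not independent, and with r of 0.832 and rho of 0.808 over the 35 members. The cause of the other changes was not tested. Unknown read depth limits the precision of low values such as Hspb1.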

Other observations

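The 14 immediate early genes, a list that includes Fos, Jun and Egr1, were mostly higher in replicate 1, an order that 7 chaperone genes had in both genotypes while 24 had the opposite order. Their sums were 5959 and 5013 FPKM in WT replicates 1 and 2 and 6786 and 5722 FPKM in Apoe-/- replicates 1 and 2, and 12 of 14 were higher in replicate 1 of both genotypes. Between the genotypes their median difference was 0.22, where that of the chaperone genes was -0.32, and 0 of 14 passed by limma (1 lower and 4 higher at an unadjusted p under 0.05). Of the 14, 9 had a difference above 0 and 5 below 0, Egr2 and Atf3 among the latter. The list does not stand for all such genes. Nr4a1, Nr4a2, Nr4a3 and Fosl2, outside it and named after their values were seen, were called lower. Any relation between these genes and the chaperone differences was not tested.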
